A study of Mus musculus with 4 samples.

Results

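Genes with a Gpr symbol encode G protein-coupled receptors, many of them orphans with no settled ligand, along with a few other membrane proteins that were given such a symbol. They were described here in the mouse dorsal striatum by their messenger RNA. A gene was taken when its symbol was Gpr followed by a number, with or without a further letter and number, and its mean over all libraries was at least 10 normalised reads. The table held 89 such rows among 25259 genes, and 68 of them, under 67 symbols, reached that mean. The 21 rows under it were not tested. Just above the limit stood Gpr160, with a mean of 11.3, and closest below it was Gpr64, with a mean of 9.48.

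The C57BL/6 mice were 8 weeks old, and were either wild-type or Foxp2hum/hum, that is, with both copies of Foxp2 carrying the humanised form. Each genotype was sampled in dorsolateral striatum (DLS) and dorsomedial striatum (DMS), by laser capture of frozen brain. There were 11 libraries from wild-type DLS, 11 from wild-type DMS, 12 from Foxp2hum/hum DLS and 12 from Foxp2hum/hum DMS. Reads summed over all genes ran from 16794127 to 41009070 per library, and reads in overlapping genes may be counted more than once. The labels do not tie the libraries to animals, so p-values measure the spread between libraries, which may in part be technical. No label names a second allele, a Cre line or a drug.

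A G protein-coupled receptor crosses the membrane in a bundle of helices and, when activated, passes its signal to a heterotrimeric G protein, whose alpha subunit sets the branch taken. Subunits of the Gs and Golf kind raise cyclic AMP, those of the Gi and Go kind lower it, and Gq acts through phospholipase C. Striatal projection neurons of the medium spiny kind are rich in several orphan receptors, among them Gpr6 in the neurons of the indirect pathway. Adhesion receptors such as Gpr56 carry long extracellular parts, and receptors such as Gpr34, Gpr17 and Gpr37 are known from glia.

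Between the regions a larger share of the receptor genes than of all genes passed the test, and between genotypes none did. In wild-type mice 20 of the 68 passed an adjusted p of 0.05 in limma's moderated test on log2(normalised reads + 1), 11 of them higher in DMS and 9 lower. That was 29.4% of the receptor genes, against 17.3% of the 19561 genes tested. The share of all genes that were higher was 8.54%, and 8.72% were lower. In Foxp2hum/hum mice 21 of the 68 passed, 9 higher in DMS and 12 lower, or 30.9% against 18.1% of all genes. Of all genes there, 9.33% were higher and 8.82% lower. The 2 regional comparisons share no library, but each gene's spread was estimated once over all 46 libraries, so their calls are not independent. In both, 17 genes passed with the same sign, 8 higher and 9 lower. These 17 made up 85% of the wild-type calls and 81.0% of the Foxp2hum/hum calls. The matching shares over all genes were not counted. The median size of the regional difference was 0.265 on the log2 scale over the receptor genes and 0.192 over all genes in wild-type mice, and 0.240 and 0.179 in Foxp2hum/hum mice. No share or median was tested as a property of the list.

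**Figure D1:**
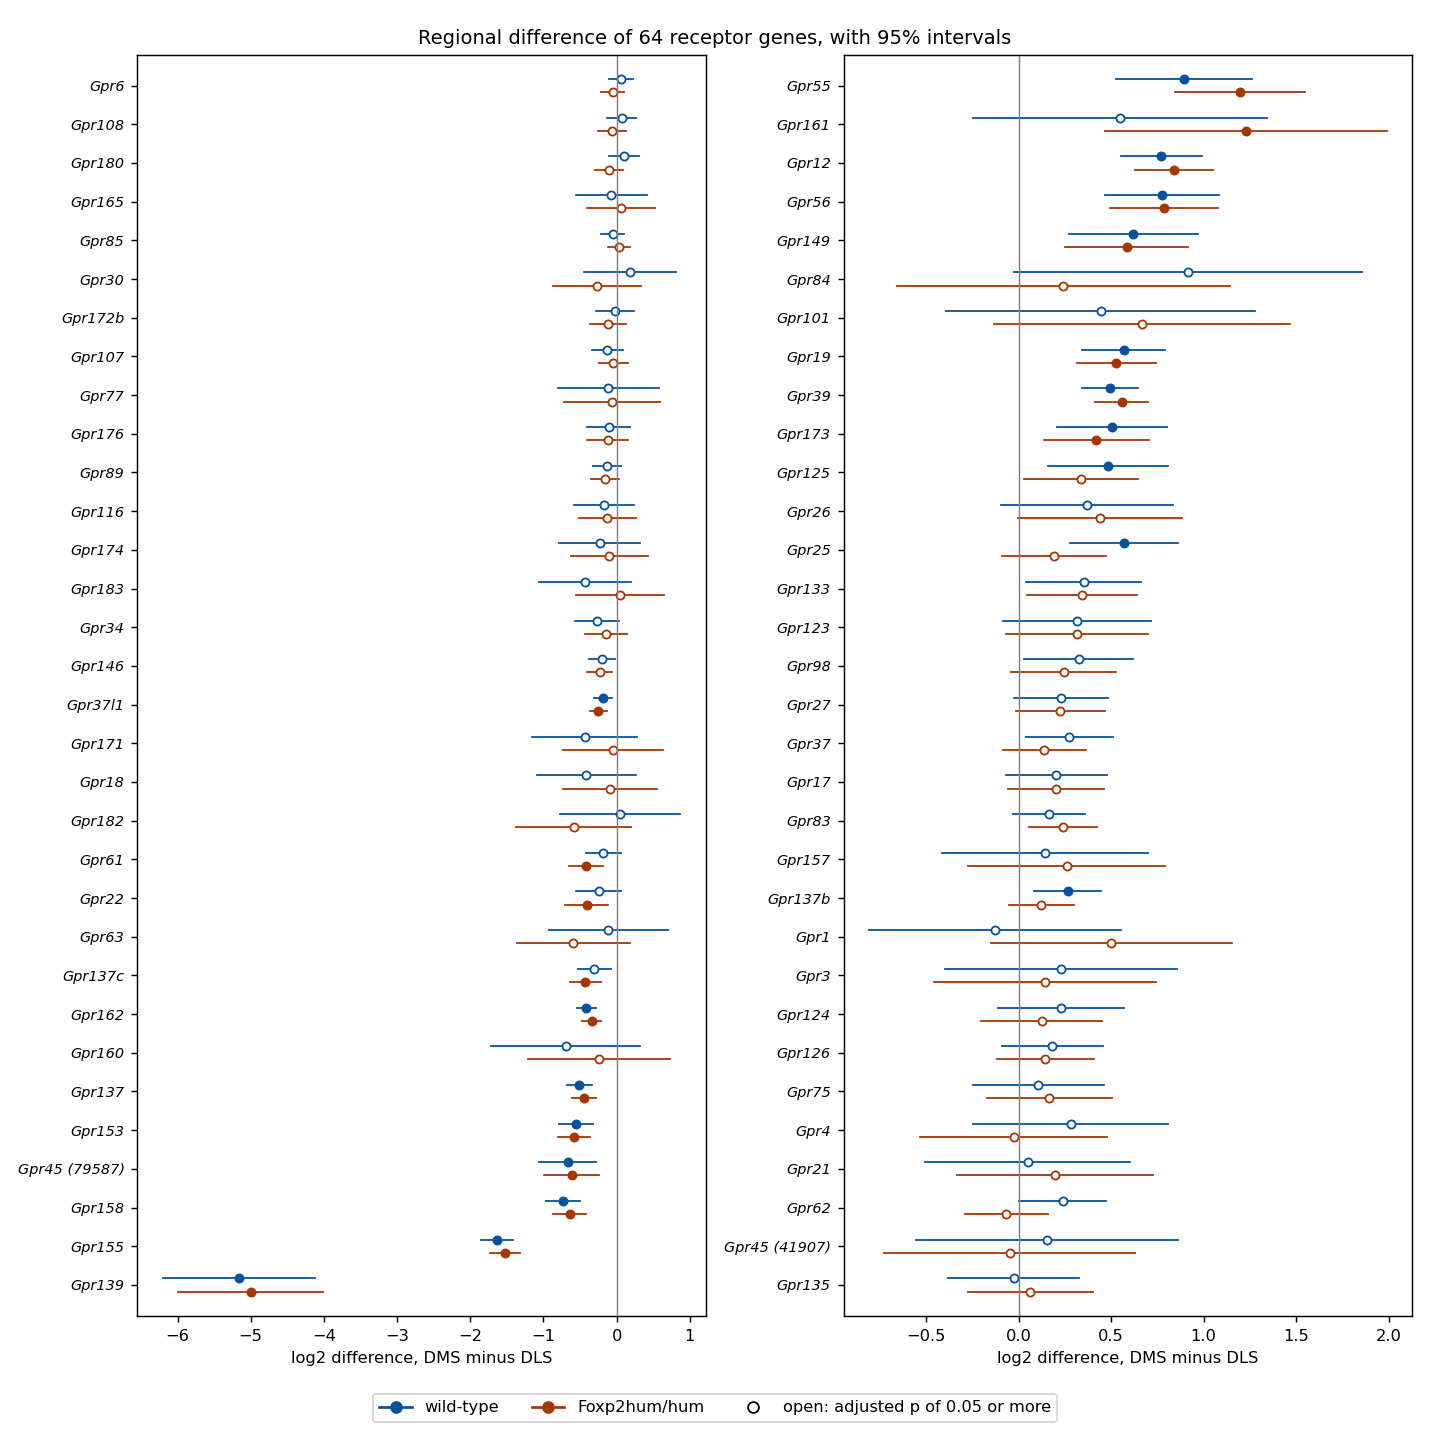
Log2 difference in normalised reads between DMS and DLS (x axis) for 64 of the 68 receptor genes (y axis, in 2 panels with different x ranges), with limma's 95% interval, in wild-type (blue) and Foxp2hum/hum mice (brown); filled points passed an adjusted p of 0.05. Gpr139 and Gpr155 lie farthest to the left in both genotypes. Gpr55 and Gpr161 lie farthest to the right in Foxp2hum/hum mice, while most other intervals cross 0.

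The captures also differed in other cell types, and this touches each regional result below. The medium spiny neuron markers were present in all libraries, with a summed level of 141261 to 172942 normalised reads in wild-type DLS and 97074 to 130545 in wild-type DMS, and 7 of 9 were lower in DMS in both genotypes. The Foxp2hum/hum sums ran from 136724 to 165411 in DLS and from 88962 to 120618 in DMS. Choroid plexus and ependyma markers were higher in DMS for 8 of 10 genes in both genotypes. Their summed level ran from 188 to 447 in wild-type DLS, from 447 to 11055 in wild-type DMS, from 184 to 324 in Foxp2hum/hum DLS and from 789 to 7334 in Foxp2hum/hum DMS. In DLS 3 of these 10 markers had a median of 0 in wild-type mice, and 2 in Foxp2hum/hum mice. All 5 neuroblast markers were higher in DMS in both genotypes, with median sums of 348 and 1388 in wild-type DLS and DMS and of 380 and 1603 in Foxp2hum/hum mice. The 3 tested markers of cholinergic and parvalbumin interneurons were lower in DMS in both genotypes. Of 6 astrocyte markers, Gfap and Gja1 were higher in both genotypes and the other 4 did not pass, with a list median of log2 -0.03 in wild-type and -0.05 in Foxp2hum/hum mice. In wild-type mice 2 of 7 oligodendrocyte markers (Cldn11 and Mal) and 1 of 3 precursor markers (Olig2) were higher in DMS, and in Foxp2hum/hum mice none of either list passed. Of 3 septal markers 1 was lower, Zic1 in wild-type and Zic4 in Foxp2hum/hum mice. Of the markers of microglia, endothelium and cortical projection neurons none passed. The part of these cells in the results was not tested. In these tissue samples, fewer cells of a type and less RNA per cell cannot be told apart. With Ttr of choroid plexus and Ccdc153 of ependyma both as covariates, 4 receptor genes passed in each genotype, among them Gpr155, Gpr12 and Gpr55 in both. Levels of Ccdc153 did not overlap between the regions, at no more than 27.9 in any DLS library and at least 40.6 in every DMS library, and the standard error of the Gpr155 difference rose from 0.11 to 0.27 in that fit for wild-type mice. With Ttr alone, 18 passed in wild-type and 17 in Foxp2hum/hum mice.

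Receptor genes known from striatal neurons differed in opposite directions. Gpr155 (mm9, chromosome 2, 73179563 to 73224629, minus strand), which encodes a lysosomal membrane protein outside the classical receptor families, was lower in DMS. In wild-type mice its values, in normalised reads, were 1826, 3281 and 4701 (lowest, median, highest) in DLS and 789, 988 and 1384 in DMS. Foxp2hum/hum libraries held 2437, 2780 and 3332 in DLS and 816, 994 and 1258 in DMS. The regions did not overlap in either genotype, and the wild-type DLS libraries were the most spread. Its log2 difference, DMS minus DLS, was -1.63 (SE 0.11, adjusted p = 3.62e-17) in wild-type mice and -1.52 (SE 0.10, adjusted p = 9.33e-17) in the humanised mice, and with both covariates -1.03 and -0.995 (adjusted p = 0.0420 and 0.0206). The genes Gm13703 and Gm13709, lie wholly within Gpr155 on the opposite strand and amounted to 7.51% and 6.88% of its value.

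Gpr139 (chromosome 7, 126287837 to 126327888, minus strand), an orphan receptor of neurons, had the largest regional difference of the set. It was at 35.4, 154 and 434 normalised reads in wild-type DLS, and at 0, 7.40 and 16.7 in wild-type DMS. The values were 67.1, 138 and 299 in Foxp2hum/hum DLS and 0, 5.42 and 13.5 in Foxp2hum/hum DMS. No DMS library reached the lowest DLS library, and 7 DMS libraries, 4 wild-type and 3 Foxp2hum/hum, held no read of it. Over all libraries of a group, 2008 reads were counted in wild-type DLS, 70 in wild-type DMS, 1720 in Foxp2hum/hum DLS and 71 in Foxp2hum/hum DMS. The log2 difference was -5.16 (SE 0.52, adjusted p = 3.26e-11) in wild-type mice and -5.00 (SE 0.49, adjusted p = 2.13e-11) in the humanised mice. With both covariates it was -2.81 and -3.18 and did not pass (adjusted p = 0.239 and 0.151).

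**Figure D2:**
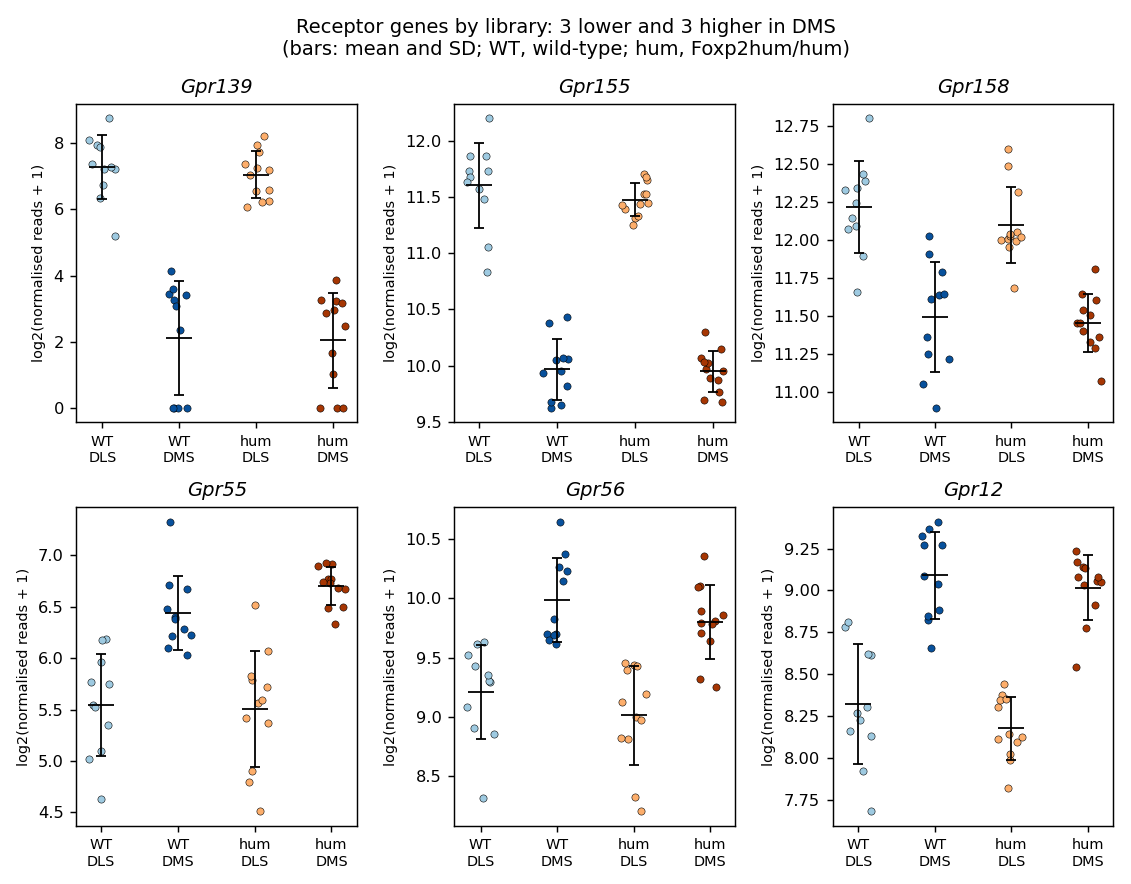
Each point is 1 library on the log2(normalised reads + 1) scale (y axis) in the 4 groups (x axis; WT, wild-type; hum, Foxp2hum/hum), with the mean and SD as bars; the y axes do not start at 0. In Gpr139 and Gpr155 no DMS library reaches a DLS library, in Gpr158 the regions overlap, and in Gpr55, Gpr56 and Gpr12 the DMS libraries lie higher.

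Gpr158 (chromosome 2, 21289169 to 21752174, plus strand), a class C receptor that binds glycine and regulators of G protein signalling, was also lower in DMS. It stood at 3231, 4859 and 7143 in wild-type DLS against 1902, 3134 and 4161 in wild-type DMS. In Foxp2hum/hum mice the values were 3283, 4161 and 6200 in DLS and 2152, 2801 and 3591 in DMS. The ranges of the regions overlapped in both genotypes. Its log2 difference was -0.73 (SE 0.12, adjusted p = 3.69e-06) and -0.64 (SE 0.11, adjusted p = 1.45e-05). With both covariates the differences were -0.00017 (wild-type) and -0.04 (Foxp2hum/hum), neither past the threshold (adjusted p = 1 and 0.946).

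The constitutively active, Gs-coupled trio Gpr3, Gpr6 and Gpr12 split. Gpr12 was higher in DMS, with 204, 307 and 449 in wild-type DLS, 402, 542 and 680 in wild-type DMS, 225, 280 and 347 in Foxp2hum/hum DLS, and 372, 535 and 603 in Foxp2hum/hum DMS. Only the Foxp2hum/hum groups were free of overlap between regions. The log2 difference was 0.77 (SE 0.11, adjusted p = 2.88e-07) in wild-type mice and 0.84 (SE 0.10, adjusted p = 1.16e-08) in the humanised mice, and with both covariates 1.09 and 1.12 (adjusted p = 0.0422 and 0.0123). Gpr6, known from indirect-pathway neurons, was level: its medians were 1762 in wild-type DLS, 1873 in wild-type DMS, 1968 in Foxp2hum/hum DLS and 1809 in Foxp2hum/hum DMS. The regional log2 difference of Gpr6 was 0.06 (95% interval -0.10 to 0.23) in wild-type and -0.05 (-0.21 to 0.10) in Foxp2hum/hum mice, and the sign in Foxp2hum/hum mice turned with quantile normalisation or with either covariate fit. Gpr3 varied more between libraries, from 31.5 to 236 over all groups, and its regional difference was 0.23 (95% interval -0.40 to 0.85) in wild-type and 0.14 (-0.46 to 0.74) in Foxp2hum/hum mice. The oppositely transcribed Cd164l2, which overlaps Gpr3 by 406 bases, amounted to 76.8% of its value and was lower in DMS (log2 -0.83 and -1.05).

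Promoter windows are shown for the 2 members with the deepest fall toward DMS that had an entry, Gpr155 and Gpr158, beside 1 of the 2 starts of Gpr12, which was higher there, and Gpr6, which did not pass. Each is the 250 bases before the start, 5′ to 3′ along the gene, from RefSeq (GRCm38.p6). Capitals mark the GC box GGGCGG or its complement, and in Gpr6 the cyclic AMP response element TGACGTCA, whose complement reads the same.
Gpr155, chr2:73386481-73386730, minus strand: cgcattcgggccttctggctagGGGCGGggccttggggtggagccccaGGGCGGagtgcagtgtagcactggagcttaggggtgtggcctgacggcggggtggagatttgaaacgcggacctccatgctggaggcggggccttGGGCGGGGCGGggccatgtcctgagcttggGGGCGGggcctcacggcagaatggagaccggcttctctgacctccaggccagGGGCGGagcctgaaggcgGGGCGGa
Gpr158, chr2:21367317-21367566, plus strand: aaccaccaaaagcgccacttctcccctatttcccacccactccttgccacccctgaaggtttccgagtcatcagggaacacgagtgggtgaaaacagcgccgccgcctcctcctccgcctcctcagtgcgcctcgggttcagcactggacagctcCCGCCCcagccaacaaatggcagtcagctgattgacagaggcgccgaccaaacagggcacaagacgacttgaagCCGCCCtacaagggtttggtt
Gpr12, chr5:146584405-146584654, minus strand: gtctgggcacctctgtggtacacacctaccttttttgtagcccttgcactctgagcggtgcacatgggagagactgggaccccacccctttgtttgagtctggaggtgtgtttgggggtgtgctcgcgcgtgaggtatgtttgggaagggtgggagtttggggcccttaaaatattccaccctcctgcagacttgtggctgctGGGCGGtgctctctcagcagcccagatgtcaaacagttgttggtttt
Gpr6, chr10:41072291-41072540, minus strand: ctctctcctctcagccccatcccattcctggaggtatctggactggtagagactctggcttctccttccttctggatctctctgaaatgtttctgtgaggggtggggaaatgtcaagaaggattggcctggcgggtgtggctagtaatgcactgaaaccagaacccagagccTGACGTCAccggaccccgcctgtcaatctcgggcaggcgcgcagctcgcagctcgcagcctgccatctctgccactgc

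Of the 67 symbols, 48 had an entry, with 65 windows. Gpr155 was the most GC-rich of the 4 shown, at 70.4% G or C, against a median of 58.4% over the 65 windows and 52.4% over all 32851 windows of the table, and it held 7 GC boxes, some overlapping. The Gpr157 window also held 7, and the Gpr12 window not shown held none. At least 1 GC box stood in 35.4% of the receptor windows and 32.7% of all windows. The motif was chosen after the Gpr155 sequence had been seen. TGACGTCA stood in 1 receptor window, that of Gpr6, and in 1.55% of all windows. Of the forkhead motifs, TGTTTAC stood in windows of Gpr146, Gpr180 and Gpr30 (3.17% of all windows) and TATTTAT in windows of Gpr1 and Gpr161 (5.17% of all windows). Both strands were searched, and a match is a description of letters only.

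Among the other receptors higher in DMS, Gpr55, a receptor for lysophosphatidylinositol, was at 23.7, 45.9 and 71.8 in wild-type DLS and 64.5, 82.2 and 160 in wild-type DMS. Foxp2hum/hum libraries gave 21.8, 46.9 and 90.6 in DLS and 79.6, 106 and 121 in DMS. The regions overlapped at their edges in both genotypes. The log2 difference was 0.89 (SE 0.18, adjusted p = 2.07e-04) in wild-type mice and 1.20 (SE 0.17, adjusted p = 4.79e-07) in the humanised mice, and with both covariates 1.85 and 2.06 (adjusted p = 0.0294 and 0.00344). Its oppositely transcribed neighbour 4933407L21Rik overlaps it by 1088 bases, was as high (122.5% of its value), and stood at log2 0.50 (adjusted p = 0.0948) and 0.75 (adjusted p = 0.00434). Of the other tested lipid and metabolite receptors (Gpr18, Gpr34, Gpr84, Gpr174 and Gpr183) none passed.

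Gpr56, the adhesion receptor with known parts in cortical development and oligodendrocyte precursors, rose from 318, 631 and 794 in wild-type DLS to 782, 908 and 1602 in wild-type DMS. It went from 294, 535 and 699 to 609, 891 and 1308 in Foxp2hum/hum mice. The highest DLS values touched the lowest DMS values in both genotypes. The log2 difference was 0.78 (SE 0.15, adjusted p = 1.23e-04) and 0.79 (SE 0.15, adjusted p = 4.69e-05), and with both covariates 1.13 in each genotype, which did not pass (adjusted p = 0.153 and 0.108). Of the 8 adhesion receptors tested, Gpr56 passed in both genotypes and Gpr125 in wild-type mice alone (log2 0.48, adjusted p = 0.0291, and 0.34, adjusted p = 0.132, in Foxp2hum/hum mice). The wild-type call of Gpr125 was lost without any 1 of 4 libraries, numbered 32, 38, 56 and 58, with adjusted p reaching 0.0535, and also with quantile normalisation or Ttr as a covariate. In Foxp2hum/hum mice Gpr125 passed without library 64, with DESeq2 and with array weights.

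Smaller differences toward DMS were seen in Gpr149 (log2 0.62 and 0.58 in wild-type and Foxp2hum/hum mice), Gpr19 (0.57 and 0.53), Gpr173 (0.51 and 0.42) and Gpr39 (0.49 and 0.56). Gpr149, an orphan listed here with the striatal receptors, was low, with means of 78.2 ± 24.3 (SD, n = 11) in wild-type DLS and 122 ± 41.1 (n = 11) in wild-type DMS, and of 84.3 ± 17.8 (n = 12) and 127 ± 28.2 (n = 12) in Foxp2hum/hum mice. Its ranges overlapped in both genotypes. With both covariates Gpr149 passed in neither genotype (adjusted p = 0.344 in wild-type and 0.339 in Foxp2hum/hum mice). With Ttr alone it passed in wild-type mice (adjusted p = 0.0218) but not in Foxp2hum/hum mice (adjusted p = 0.0532). Gpr19, an orphan linked to the primary cilium, had means of 158 ± 17.6 and 236 ± 43.8 in wild-type mice and 169 ± 29.8 and 245 ± 48.4 in Foxp2hum/hum mice. With both covariates its difference was -0.04 and -0.02. Gpr173 belongs to the super-conserved brain receptors, of which the other two, Gpr27 (0.23 and 0.23) and Gpr85 (-0.05 and 0.03), did not pass. Gpr173 overlaps 3010001F23Rik, at 19.9% of its value, and AL731727.1, which GENCODE M1 also names Gpr173, at 12.4%. The Foxp2hum/hum call of Gpr173 was lost without any 1 of libraries 11, 22, 61 and 84 (adjusted p up to 0.071), with quantile normalisation and with Ttr as a covariate.

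Gpr39 is a zinc-sensing receptor whose row cannot be read apart from Lypd1, a gene transcribed the other way. The genes share 1202 bases of exon, and the Gpr39 value was between 0.886 and 0.954 of the Lypd1 value in each of the 46 libraries. Lypd1 itself differed by log2 0.50 and 0.54. How much of the Gpr39 difference is from either gene cannot be told apart.

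A similar reading holds for 2 adhesion receptors that would otherwise count among the most abundant members. Gpr126, at a mean of 4975 normalised reads, holds in an intron the gene Gm10335, with a mean of 4820, or 96.9% of it. Gpr133, at 3059, holds the ribosomal pseudogene Rps16-ps2, at 2937, or 96.0%. Neither Gpr126 (log2 0.18 and 0.14) nor Gpr133 (0.35 and 0.34) passed between regions. With the nested gene's reads taken out, Gpr126 kept a mean of 162 in wild-type DLS and 164 in wild-type DMS, and Gpr133 kept 128 and 126. The differences were then 0.05 and -0.17 for Gpr126 and 0.00044 and 0.13 for Gpr133, none past the threshold.

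**Figure D3:**
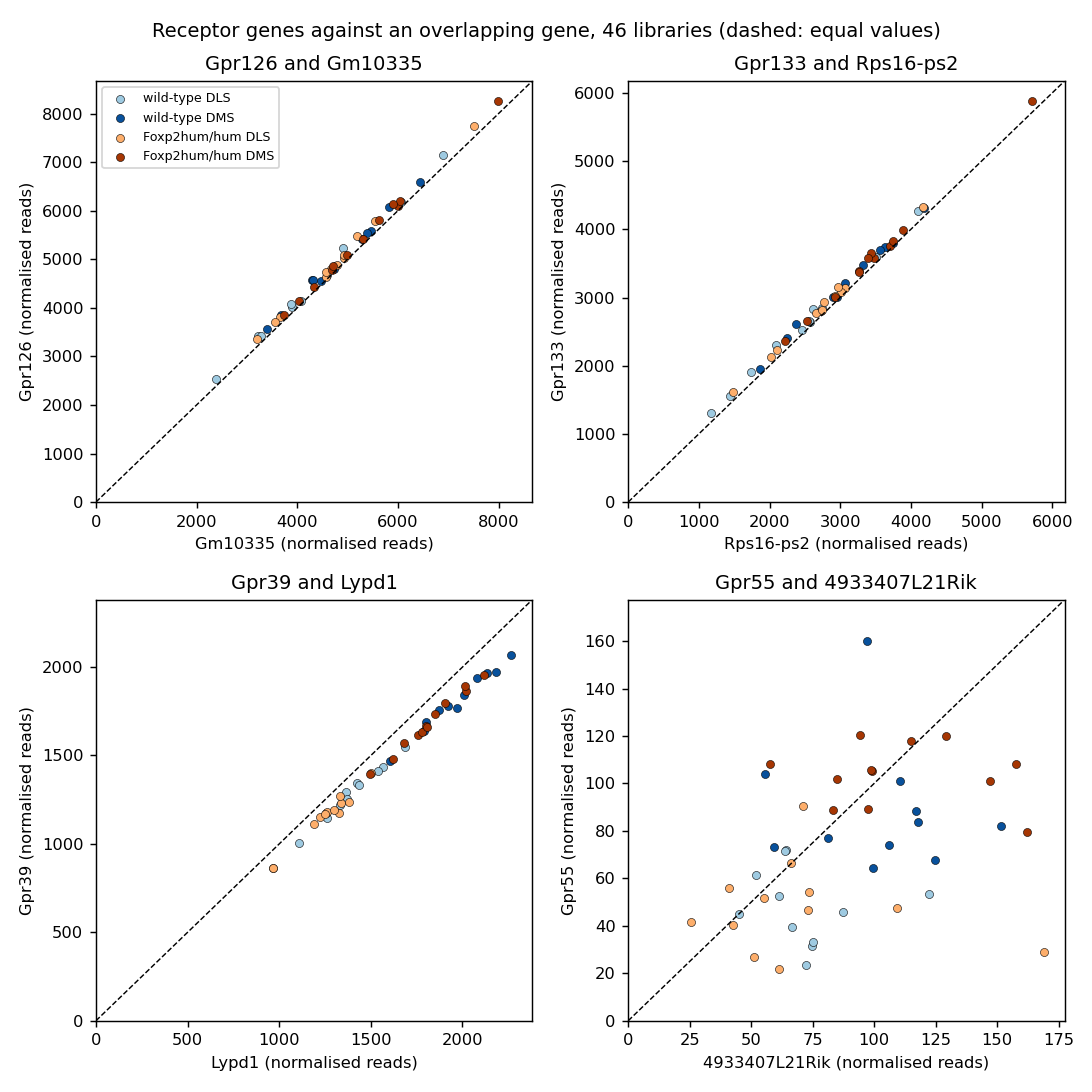
Normalised reads of 4 receptor genes (y axis) against those of an overlapping gene (x axis), 1 point per library, with the dashed line at equal values. Gpr126 and Gpr133 lie just above the line in all 46 libraries, Gpr39 just below it, and Gpr55 is spread to both sides of it, with 18 libraries on or above the line.

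In all, 25 of the 68 receptor genes overlapped a gene that amounted to at least 10% of their value, and 10 lay wholly within the span of another gene. Among them were Gpr34 within Cask, Gpr17 within Lims2, and Gpr18 and Gpr183 within Ubac2. Overlaps of at least 10% were also found for Gpr21, Gpr26, Gpr30, Gpr89, Gpr98, Gpr146, Gpr171 and Gpr182, none of which passed between regions. Gpr155, Gpr139, Gpr158, Gpr6, Gpr12 and Gpr56 had no single overlapping gene of that size. Per kilobase of exon, abundant members free of such an overlap were Gpr37l1 (1088), Gpr6 (1037), Gpr158 (461), Gpr155 (340) and Gpr162 (280), and 13 of the 68 were under 10. Intron reads may enter these values, as those of the nested genes did in Gpr126 and Gpr133. Members of unlike intron length can therefore not be ranked by them. Gpr158 spans 463006 bases with 8170 of exon, and Gpr6 spans 2297 bases with 1774 of exon.

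A further set of members was lower in DMS in both genotypes, a Gpr45 row (log2 -0.67 and -0.61), Gpr153 (-0.56 and -0.58), Gpr137 (-0.51 and -0.44), Gpr162 (-0.41 and -0.34) and Gpr37l1 (-0.18 and -0.25). None of these members passed with both covariates in either genotype. In that fit the Gpr153 difference was -0.0074 (wild-type) and -0.11 (Foxp2hum/hum), and that of the Gpr45 row -1.33 and -1.29. The wild-type call of that Gpr45 row was also lost with array weights. Gpr153 and Gpr162 are related orphans of the brain, and stood at means of 423 ± 105 and 285 ± 52.3 (Gpr153) and of 1250 ± 105 and 939 ± 84.3 (Gpr162) in wild-type DLS and DMS (SD, n = 11 each). Gpr137 encodes a lysosomal membrane protein, was at 841 ± 50.2 and 592 ± 61.2, with no overlap of its wild-type ranges, and overlaps Bad, which amounted to 38.3% of it. A pair of table rows carries the symbol Gpr45, on chromosome 1 and 76.9 kb apart. Their transcripts in GENCODE M1 share no stretch of 40 bases. The row ENSMUSG00000079587, with means of 81.0 in wild-type DLS and 49.2 in wild-type DMS, passed, and ENSMUSG00000041907, at log2 0.15 and -0.05, did not.

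Of 9 tested receptors known from glia and immune cells, 1 passed. Gpr37l1, a receptor of astrocytes, had values of 2248, 2653 and 2937 in wild-type DLS, 2027, 2296 and 2870 in wild-type DMS, 2428, 2571 and 3339 in Foxp2hum/hum DLS and 2037, 2196 and 2596 in Foxp2hum/hum DMS. The ranges overlapped widely. The adjusted p was 0.0272 (wild-type) and 8.81e-04 (Foxp2hum/hum), and the wild-type call was lost without any 1 of libraries 24, 34, 58 and 86, with quantile normalisation, with only the compared groups fitted, and with Ttr as a covariate. Gpr37, its relative in oligodendrocytes, stood at 0.27 (95% interval 0.04 to 0.51, adjusted p = 0.107) and 0.14 (-0.09 to 0.36). Gpr17 of oligodendrocyte precursors stood at 0.20 and 0.20, and microglial Gpr34 at -0.27 and -0.14, with intervals that crossed 0.

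**Figure D4:**
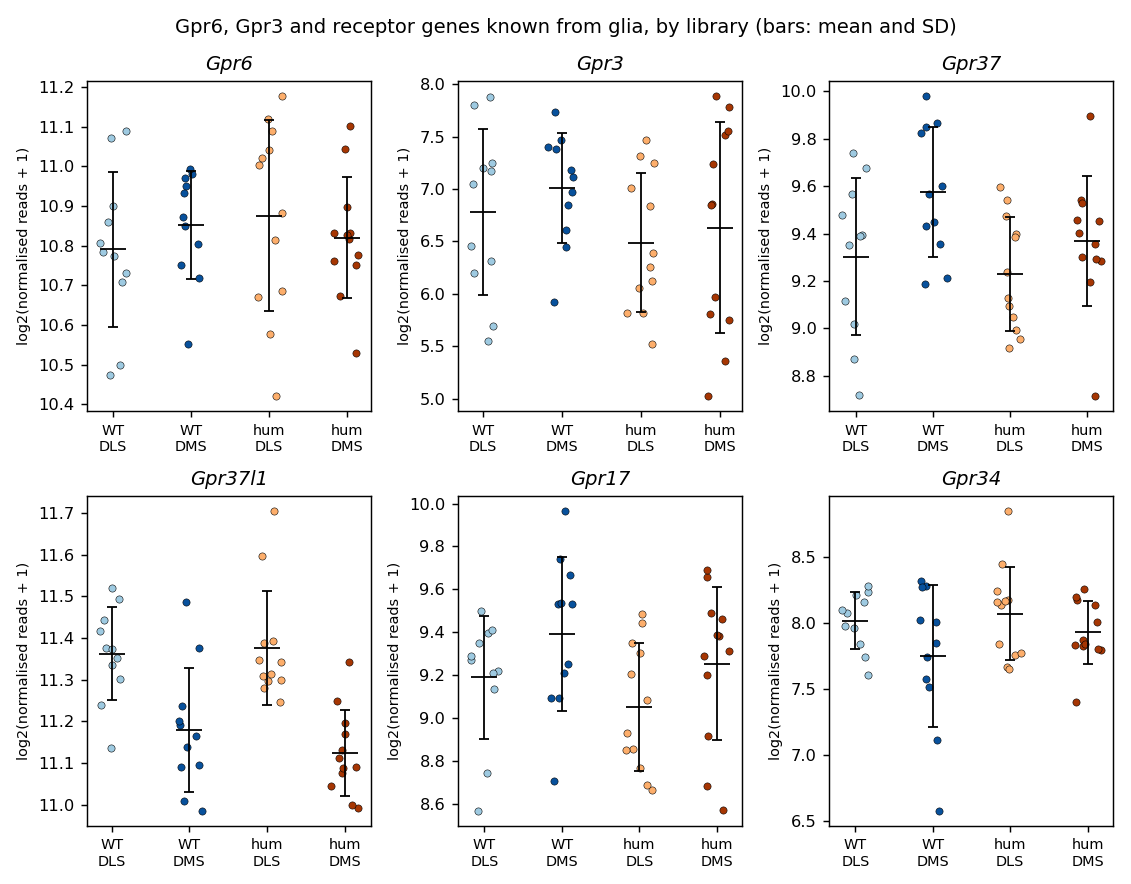
Values of 6 receptor genes on the log2(normalised reads + 1) scale (y axis, not from 0) in each library of the 4 groups (x axis), with the mean and SD as bars. The groups overlap in all 6, and the Gpr37l1 means are lower in DMS than in DLS in both genotypes.

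The other 7 genes passed in 1 genotype alone. In wild-type mice these were Gpr125, Gpr137b (log2 0.26) and Gpr25 (0.57), and in Foxp2hum/hum mice Gpr161 (1.23), Gpr137c (-0.43), Gpr61 (-0.42) and Gpr22 (-0.41). In the other genotype all 7 had the same sign, and the interaction of genotype and region passed for none of them. Gpr161, a ciliary receptor tied to hedgehog signalling, was sparse, at 0 to 27.5 normalised reads in DLS and 3.53 to 50.1 in DMS. The Foxp2hum/hum call of Gpr161 was lost with Ttr alone as a covariate (adjusted p = 0.0832) and with both covariates (adjusted p = 0.148). Gpr25 shares 838 exon bases with the oppositely transcribed Gm17543, which amounted to 1045% of its value, Gpr137c overlaps Txndc16 at 316% of its value, and Gpr22 lies within Cog5, at 449.7% of its value. The Foxp2hum/hum call of Gpr22 was lost without any 1 of 14 libraries, and the wild-type difference of Gpr137c (-0.30, adjusted p = 0.0506) passed without any 1 of 13.

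The next question was whether the humanised allele changed these receptors. No receptor gene passed in DMS, in DLS or in the interaction, and 0% of all genes did. At an unadjusted p under 0.05 there were 1, 5 and 0 receptor genes, and 700, 843 and 321 of all genes. With edgeR and with DESeq2 no receptor gene passed either; edgeR gave 757, 773 and 276 genes in all at an unadjusted p under 0.05, and DESeq2 gave 713, 843 and 324. The median size of the genotype difference was 0.143 on the log2 scale in DMS and 0.127 in DLS, against 0.106 and 0.118 over all genes. The 95% interval excluded a 1.5-fold difference in either direction for 45 of the 68 in DMS and 45 in DLS, and a 2-fold difference for 60 and 58.

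For Gpr155 the genotype difference was log2 -0.02 (95% interval -0.23 to 0.19) in DMS and -0.13 (-0.34 to 0.08) in DLS, and for Gpr6 -0.03 (-0.19 to 0.13) and 0.08 (-0.08 to 0.24). The Gpr139 intervals were wide, at -0.08 (-1.09 to 0.94) and -0.24 (-1.25 to 0.78). The comparisons of genotype share no library between regions, but use the same estimate of each gene's spread.

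Ordered by p, the leading receptor genes of each direction did not pass. In DMS they included Gpr1 (log2 0.44) and Gpr55 (0.26) upward, and Gpr63 (-0.83), Gpr25 (-0.28) and Gpr137c (-0.21) downward, with a lowest adjusted p of 0.955 over all 68. Gpr63, an orphan that overlaps Gm11906 (688% of its value) and C230012O17Rik (24.5%), had values of 56.2, 94.3 and 210 in wild-type DMS and 0.962, 67.9 and 137 in Foxp2hum/hum DMS. In DLS they were Gpr22 (0.34), Gpr137b (0.21) and Gpr62 (0.16) upward, and Gpr183 (-0.64), Gpr39 (-0.16) and Gpr162 (-0.13) downward, with a lowest adjusted p of 0.843. Gpr62 overlaps Pcbp4, at 550% of its value, by 35 bases. For the interaction they were Gpr161 (0.68), Gpr1 (0.63) and Gpr55 (0.30), and Gpr25 (-0.38), Gpr62 (-0.30) and Gpr180 (-0.20), with every adjusted p at 1.

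**Figure D5:**
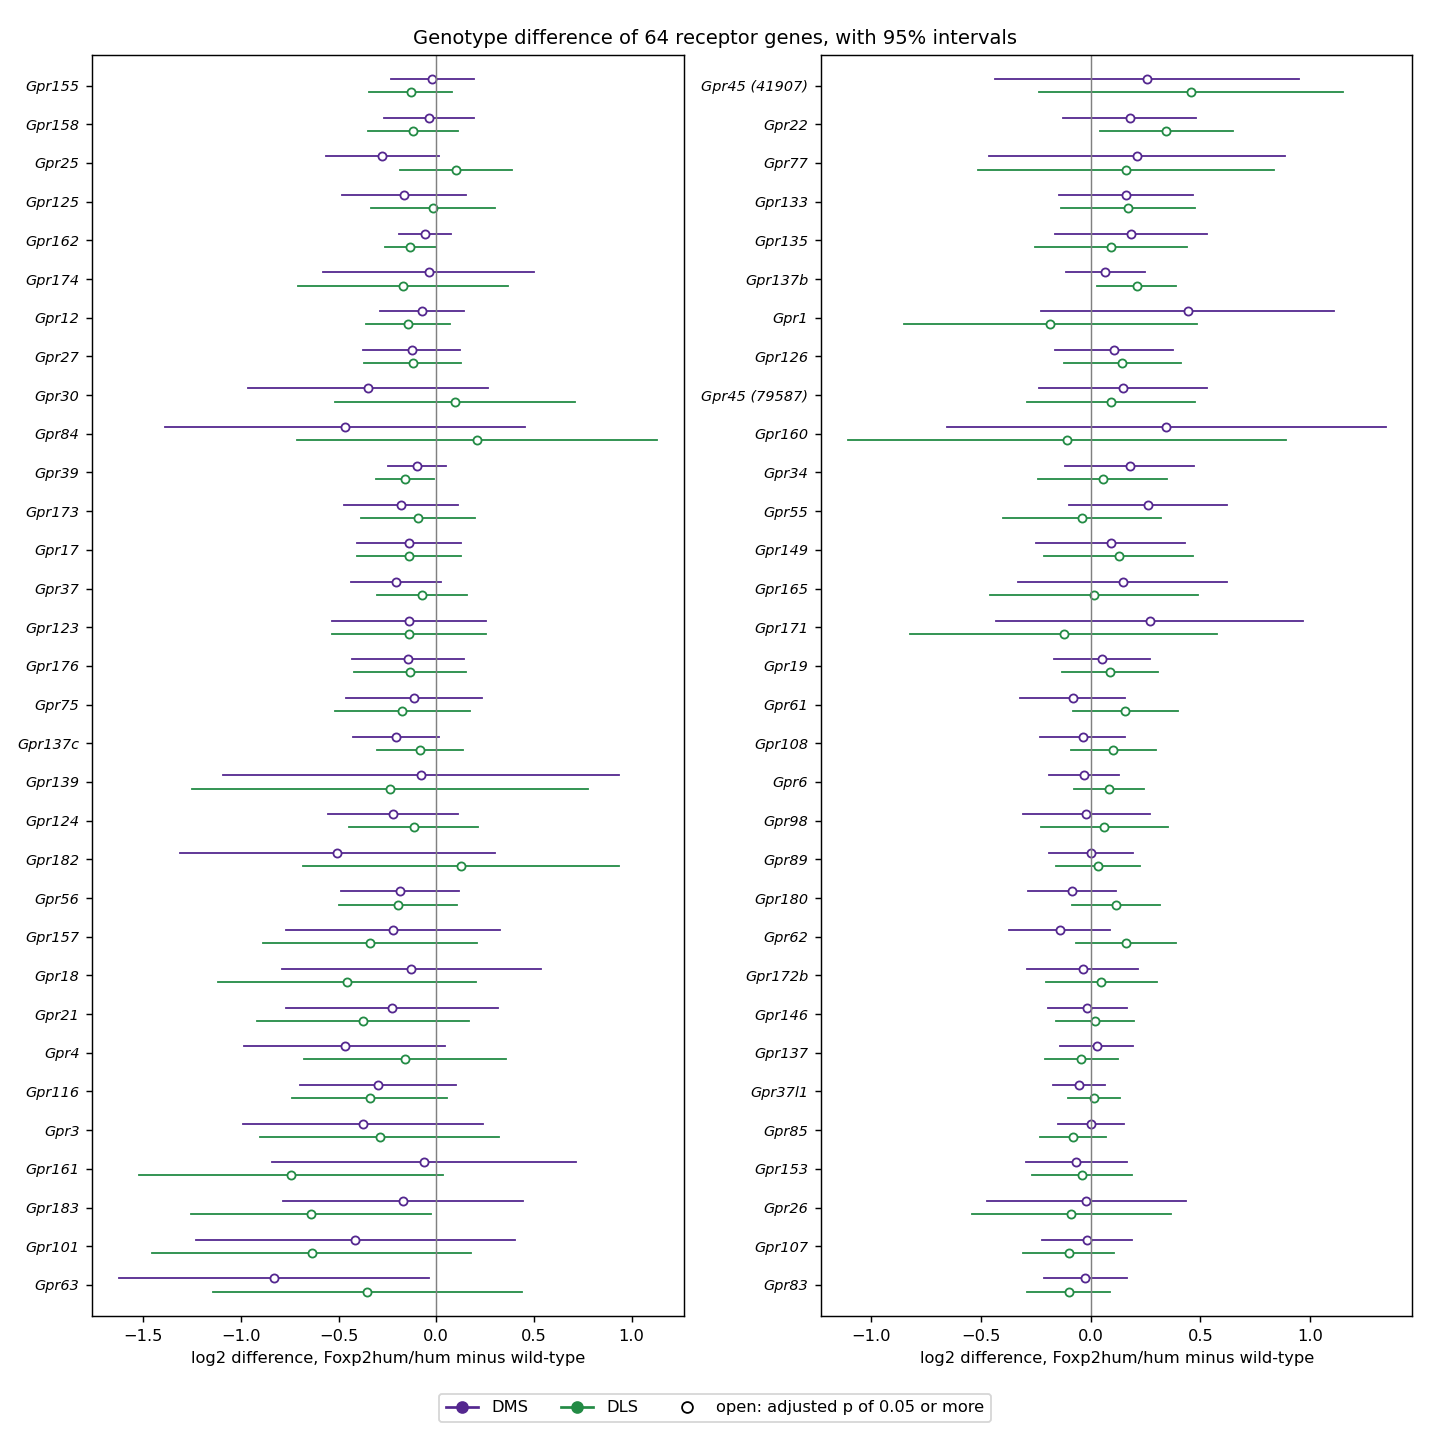
Log2 difference in normalised reads between Foxp2hum/hum and wild-type mice (x axis) for 64 of the 68 receptor genes (y axis, in 2 panels with different x ranges), with limma's 95% interval, in DMS (purple) and DLS (green). All points are open, since none passed an adjusted p of 0.05, and the widest intervals belong to Gpr139 and to low genes such as Gpr160.

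Messenger RNAs of the proteins that carry the receptors' signal also differed between regions, in both directions. Of 36 tested G protein subunits, receptor kinases and arrestins, 7 were higher and 5 lower in DMS in wild-type mice, and 6 higher and 6 lower in Foxp2hum/hum mice. Over all genes tested, 8.54% were higher and 8.72% lower in wild-type mice, and 9.33% and 8.82% in Foxp2hum/hum mice, and the list was not tested against them. Lower in both genotypes were Gnal (log2 -0.48 and -0.45), the Golf subunit through which striatal dopamine and adenosine receptors raise cyclic AMP, with its partner Gng7 (-0.29 and -0.32), and Gnao1 (-0.44 and -0.44), Gnb1 (-0.36 and -0.39) and Gnb5 (-0.21 and -0.18). Higher in both were the Gi subunits Gnai1 (0.83 and 0.87) and Gnai2 (0.41 and 0.37), Gna14 of the Gq family (1.24 and 1.34), Gnb4 (1.30 and 1.18) and Gng4 (0.39 and 0.31). No kinase or arrestin passed in wild-type mice, and Grk5 was lower in Foxp2hum/hum mice (-0.33, adjusted p = 0.0487). No gene of this list passed between genotypes.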

How the data were processed

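The 46 striatal libraries were sequenced on an Illumina GAIIx, and reads were aligned to mm9, with TopHat 1.4.1, bedtools and DESeq named in the submitters' processing notes. How reads were assigned to genes is not stated in any label or header. The authors deposited a normalised signal per gene and library, that is, read counts divided by a DESeq size factor per library. Dividing by the smallest step of its library turned each value checked, up to 2000 reads, into a whole number within 0.01 (100%), so whole reads were recovered for the count tests. Groups were taken from the column headings. Genes whose mean reached 10 (19561 of 25259) were fitted on log2(value + 1) with limma 3.58.1 (R 4.3.3; trend, 4 group means, 5 contrasts), with two-sided tests and Benjamini-Hochberg adjustment over all of them. A fold on this scale understates the change of low genes.

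Positions and overlaps came from GENCODE M1 on mm9, and promoter windows from RefSeq. Genes that overlap on either strand may share reads, so overlapping genes that amounted to at least 10% of a member's value were counted, and are given for the members that passed and were named. Counts were simulated for the wild-type regional comparison over 19561 genes. Of the changed genes, 97 of 100 with a 2-fold change and 57 of 100 with a 1.5-fold change were recovered, with 6 false calls. These shares give no recovery rate for low genes, among them the 18 receptor genes averaging under 50 normalised reads. The members, gene lists and tests were chosen with earlier results of these data known. Genes were chosen for naming as Gpr155, Gpr6, Gpr3, Gpr12, Gpr149, Gpr37, Gpr37l1, Gpr17, Gpr34, Gpr56 and Gpr158, the 10 largest differences per direction among genes that passed between regions, and the 3 smallest p per direction elsewhere. Not all of these are given with group levels, SE and p. Alternatives were run with edgeR 4.0.16 and DESeq2 1.42.0 and other settings. Gpr52 and protein identity were not analysed here, and some members that enter the fits and counts are not reported by name. Figures were drawn with matplotlib 3.10.9.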

Additional observations from a re-analysis of the deposited data

How the results depend on the processing

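The number of receptor genes that passed between regions ran from 18 to 24 in wild-type mice and from 17 to 25 in Foxp2hum/hum mice over other pseudocounts, filters, normalisations, edgeR, DESeq2, array weights, fitting only the 2 groups compared, a threshold of 0.1, Ttr alone as a covariate, and the fit without libraries 70 and 72. It was 4 and 4 with Ttr and Ccdc153 as covariates. Leaving out each library in turn gave 18 to 21 and 19 to 22. The genotype comparisons and the interaction kept 0 under every alternative. With Ttr and Ccdc153 as covariates the sign turned in wild-type mice for Gpr137c (0.041), Gpr19 (-0.043), Gpr22 (0.58) and Gpr61 (0.046), and in Foxp2hum/hum mice for Gpr19 (-0.018), Gpr22 (0.31), Gpr25 (-0.30) and Gpr6 (0.079). In Foxp2hum/hum mice Gpr6 also turned with quantile normalisation (0.016) and with Ttr alone (0.026). With the nested gene's reads taken out, Gpr126 turned between regions in Foxp2hum/hum mice (-0.17) and between genotypes in DMS (-0.25) and DLS (-0.023), as Gpr133 did between genotypes (-0.024 and -0.15). The fits with Ttr alone and with the nested reads removed were added after seeing the data. The cause of these changes was not tested. No paired analysis was possible because the columns carry no replicate numbers shared between groups. Of the 68, 18 had a mean under 50; recovery by level was not tested.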

Other observations

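The mean within-group coefficient of variation had a median of 23.9% over the 68 receptor genes and was highest in Gpr139 (72.9%). That average includes the DMS groups, where Gpr139 was near the floor and 7 libraries held no read of it. Gpr37l1 (8.91%), Gpr162 (9.62%) and Gpr85 (10.5%) were among the steadiest. Some members lie close together on a chromosome, Gpr18 and Gpr183 at 36.6 kb on chromosome 14, Gpr146 and Gpr30 at 26.7 kb on chromosome 5, and both Gpr45 rows. In GENCODE M1, 6 members have a single exon. Members lie on 20 chromosomes.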
